A study of Mus musculus with 24 samples.

Results

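The nuclear genes for the subunits of the oxidative phosphorylation complexes were followed in TM3 cells, a line of mouse Leydig cells, after nanosecond pulsed electric fields (nsPEF) or a sham exposure. The genes were taken by name from the RefSeq annotation of the mouse (GRCm38.p6), as the symbols that begin with Nduf followed by a subunit letter and number (complex I), Sdha to Sdhd (II), Uqcr or the symbol Cyc1 (III), Cox4 to Cox8 (IV) and Atp5 (V). No measured value entered this choice. Of 106 symbols, 88 were protein-coding genes and 84 of these had a probe on the array, with 37 in complex I, 4 in complex II, 9 in complex III, 17 in complex IV and 17 in complex V. Among them, 81 of the 16842 genes that passed the detection filter could be tested, and 79 of the 81 were well above background on all 24 arrays. The exceptions among the tested genes were Cox7a1 and Ndufa4l2. The 3 that could not be tested were Cox7b2, Cox8b and Cox8c, isoforms of complex IV subunits known from testis or muscle, whose probes were well above background on fewer than 2 of 4 arrays in every group. Cox5b, Ndufb1, Ndufb4b and Ndufb4c had no probe that could be matched, and the subunits encoded in mitochondrial DNA were not analysed here.

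These complexes lie in the inner mitochondrial membrane. Complexes I and II take electrons from NADH and succinate, complex III passes them from ubiquinol to cytochrome c, complex IV hands them to oxygen, and the proton gradient built up on the way drives ATP synthesis by complex V. Leydig cells make testosterone, and the first step of steroid synthesis takes place in the same mitochondria and depends on their membrane potential. Most subunits are encoded in the nucleus, and several of complex IV and complex V exist as isoforms from separate genes.

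Cells in suspension were exposed in cuvettes to 80 pulses of 60 ns at 14 kV/cm over 180 s or were sham-exposed in the same way without a field, and RNA was taken at once (0 h), after 4 h or after 24 h. Each of the 6 groups had 4 biological replicates, and each replicate was one array, which made 24 arrays. One slide held the 8 arrays of one time point, so that time and slide cannot be told apart, and on every slide the sham samples lay in one row and the nsPEF samples in the other, so that treatment and slide row cannot be told apart. TM3 is a single established line, and RNA came from all cells of a sample. A smaller share of cells that express a gene and less of its RNA per cell cannot be told apart. Of 8 Leydig cell markers, 7 had a probe. Star, Cyp17a1 and Nr5a1 were well above background on all 24 arrays, and Cyp11a1, Hsd3b1, Hsd17b3 and Lhcgr, which define the steroid-making cell, on none. Of 4 fibroblast or mesenchyme markers 4 were above background on all arrays, of 5 Sertoli cell markers 3, and of 4 germ cell markers 0. Each of the 4 germ cell markers was above background on some arrays. Of 4 macrophage markers 2 were above it on all arrays, of 3 smooth muscle markers 2 and of 3 endothelial markers 1. Levels are given as log2 of the scanner's processed signal less the 75th percentile of the same array, so that a difference of 1 is a doubling, and levels of different probes are not compared. The 75th percentile lay between 201.8 and 532.7 intensity units, and the share of probes well above background was 57.48% to 62.12% on the sham arrays and 51.2% to 57.22% on the nsPEF arrays. Replicate 4 of the sham arrays at 4 h was the brightest array and stood apart from its group, and the main results that rest on it are given with and without it.

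Many respiratory chain genes have short, GC-rich promoters in which binding sequences of nuclear respiratory factor 1 (NRF1), of GABPA and other ETS factors, of YY1 and of Sp1 are known. The 150 bases before the start that RefSeq lists are shown for 4 subunit genes that were clearly lower at 4 h than at 0 h in sham-exposed cells. They are also shown for 2 whose smaller differences did not pass the test there (adjusted p under 0.05). The reader can thus see which of these sequences they hold. The genes with large differences are Ndufs7 (chr10:80249299-80249448, plus strand), Cox7a2l (chr17:83514334-83514483, minus strand), Sdhb (chr4:140961121-140961270, plus strand) and Atp5g2 (chr15:102671048-102671197, minus strand), and those with small ones at 4 h are Atp5md (chr19:47090648-47090797, minus strand) and Ndufa10 (chr1:92473759-92473908, minus strand). For Ndufs7 and Ndufa10 the listed start lies inside the span of the gene, since it belongs to one of several transcripts. Capitals mark a match, on either strand, to GCGCATGC (NRF1), CCGGAAG (GABPA and other ETS factors), AAGATGG (YY1) or GGGCGG (Sp1).
Ndufs7: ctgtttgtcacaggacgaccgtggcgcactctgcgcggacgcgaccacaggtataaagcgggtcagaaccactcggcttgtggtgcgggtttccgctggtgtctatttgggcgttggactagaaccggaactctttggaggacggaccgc
Cox7a2l: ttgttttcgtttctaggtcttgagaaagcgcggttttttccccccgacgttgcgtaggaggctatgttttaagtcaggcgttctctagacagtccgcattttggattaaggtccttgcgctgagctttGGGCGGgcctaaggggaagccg
Sdhb: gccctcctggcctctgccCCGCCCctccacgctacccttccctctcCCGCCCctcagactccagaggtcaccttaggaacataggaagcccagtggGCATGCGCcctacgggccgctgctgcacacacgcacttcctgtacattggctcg
Atp5g2: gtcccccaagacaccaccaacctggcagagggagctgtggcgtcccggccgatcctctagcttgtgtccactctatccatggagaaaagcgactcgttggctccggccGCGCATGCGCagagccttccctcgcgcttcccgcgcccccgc
Atp5md: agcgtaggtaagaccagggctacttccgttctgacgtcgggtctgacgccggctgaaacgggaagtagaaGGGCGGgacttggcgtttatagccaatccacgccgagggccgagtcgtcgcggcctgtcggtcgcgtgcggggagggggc
Ndufa10: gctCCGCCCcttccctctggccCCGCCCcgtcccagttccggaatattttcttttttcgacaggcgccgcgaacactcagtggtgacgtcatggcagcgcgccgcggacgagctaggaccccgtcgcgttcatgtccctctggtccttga
Over the whole window held for each promoter, from 250 bases before to 50 after the start, 65 of the 81 tested genes had an entry. The NRF1 sequence was present in 10 of the 65 (15.4%) and in 2.8% of 27025 mouse promoters of the same length. The ETS sequence was present in 16 (24.6%, against 9.12% of all promoters), that of YY1 in 10 (15.4%, against 6.48%) and that of Sp1 in 27 (41.5%, against 35.9%). The 27025 promoters were not limited to genes that passed the detection filter, whereas the 65 were, so the 2 groups differ in more than their function. A match is a run of letters and not a measured binding site. In the printed bases Sdhb and Atp5g2 held the NRF1 sequence, with overlapping matches on both strands in Atp5g2. Cox7a2l, Sdhb, Atp5md and Ndufa10 held that of Sp1, and Ndufs7 held none of the 4 sequences there. The Sp1 sequence was thus present both in genes that were clearly lower at 4 h and in genes that did not pass.

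The first question was how the subunit genes behaved over time in cells that had received no field. The paper describes a long preparation before exposure, in which cells were detached, centrifuged, filtered and moved to another medium. The 0 h cells came straight from this handling and the later ones from culture. Time and handling therefore cannot be told apart either. In sham-exposed cells 60 of the 81 genes were lower at 4 h than at 0 h, 1 was higher and 20 did not pass the test (adjusted p under 0.05), while 34.6% of all tested genes were lower and 30.8% higher. The median difference of the subunit genes was -0.23, against -0.04 for all genes, and 77 of the 81 differences were below 0. At 24 h 60 genes were again lower than at 0 h and 0 higher, against 22.8% and 15.7% of all genes, with a median of -0.25 against -0.02. At 24 h this direction held under every scaling tried except one on the spike-in RNA, which raised the median of all genes by 0.67 and that of the subunit genes to 0.45, so that relative to all genes they lay lower by the same -0.23. Under quantile normalization 31 genes were lower and 2 higher at 24 h, and the distance to all genes was -0.10. At 4 h the direction held under all scalings, from -0.35 to -0.17 for the subunit genes, but under the normexp background correction the median of all genes also moved to -0.15. Both comparisons used the same 0 h arrays. The differences were small for most genes. The middle part of the 81 genes, from the lower to the upper quartile, lay between -0.32 and -0.16 at 4 h and between -0.35 and -0.17 at 24 h, whereas that of all genes spanned -0.51 to 0.46 at 4 h.

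**Figure D1:**
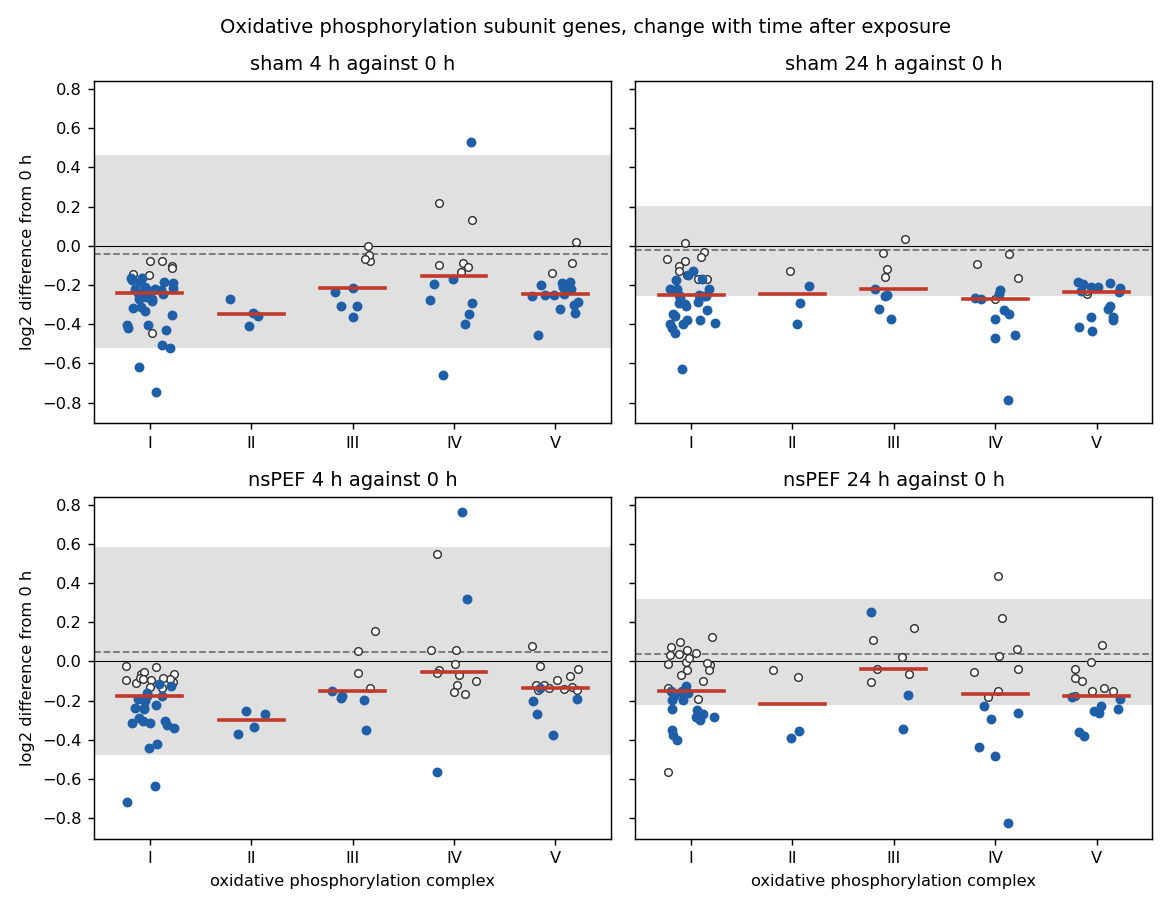
Difference from 0 h (log2, y axis) of each tested subunit gene by complex (x axis), in sham-exposed and nsPEF-exposed cells at 4 h and 24 h. Each point is a gene, filled where the adjusted p was under 0.05 and open otherwise, the red bar is the median of the complex, and the grey band and dashed line are the quartiles and the median of all tested genes. Most points lie below 0 in all 4 panels under the 75th percentile scaling, whereas spike-in scaling moved every complex median at 24 h above 0, with the complex medians between -0.35 and -0.15 in sham-exposed cells at 4 h and Cox6b2 of complex IV above the rest at 4 h.

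The array medians show how far this rested on single arrays. Relative to the mean level of the sham arrays at 0 h, the median over the 81 genes was 0.01 ± 0.04 (SD, n = 4) on those arrays themselves, -0.23 ± 0.08 on the sham arrays at 4 h and -0.26 ± 0.05 at 24 h. All 4 arrays at 4 h and all 4 at 24 h lay below all 4 at 0 h. Replicate 4 at 4 h had a median of -0.35 and the lowest of its group, and the other arrays of the group reached -0.18. Without that array 48 genes were lower and 1 higher at 4 h, with a median of -0.19. Its effect was largest in complex V, where 9 in place of 14 genes were then lower. Of the 60 genes that were lower at 4 h, 12 did not pass without it.

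**Figure D2:**
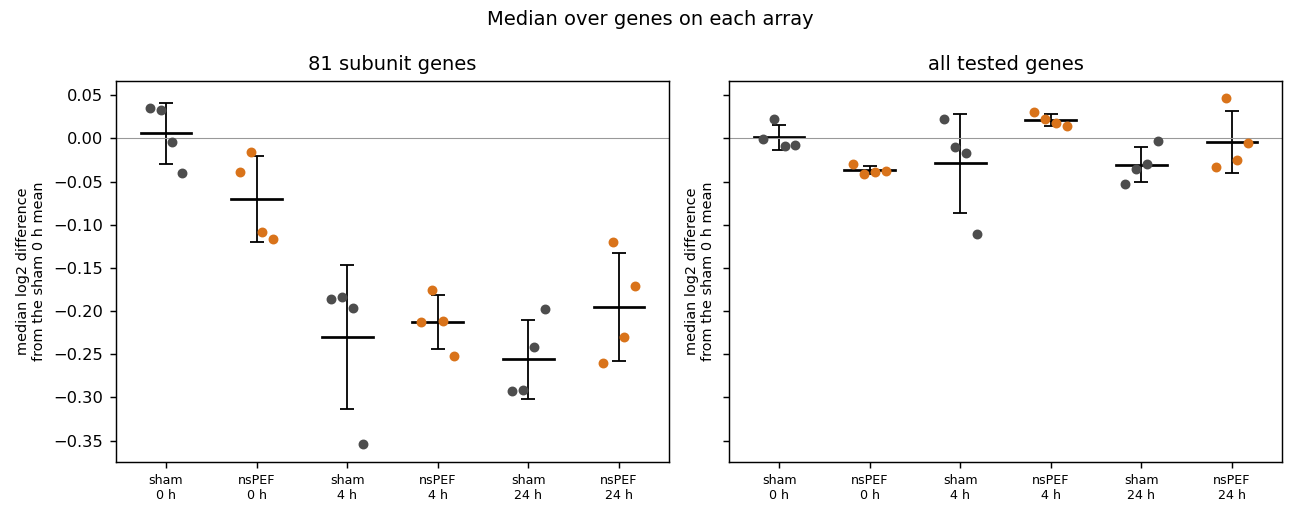
Median difference from the mean of the sham arrays at 0 h (log2, y axis) for each of the 24 arrays by group (x axis), over the 81 subunit genes and over all tested genes. The subunit genes lie below all genes on every array at 4 h and 24 h, and replicate 4 of the sham arrays at 4 h lies lowest, at -0.35.

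Complex I, the NADH dehydrogenase, had 30 of 37 genes lower in sham-exposed cells at 4 h and 27 at 24 h, with 0 higher at either time and medians of -0.24 and -0.25. The 24 h direction turned under spike-in scaling (0.45), as it did for each of the other complexes. The strongest difference belonged to Ndufs7, an iron-sulfur subunit next to the site where ubiquinone is reduced. On the sham arrays Ndufs7 read 6.03, 5.99, 6.05 and 6.04 at 0 h, 5.35, 5.30, 5.30 and 5.16 at 4 h, then 5.70, 5.78, 5.74 and 5.85 at 24 h. On the nsPEF arrays it read 5.97, 6.01, 5.96 and 5.94, then 5.23, 5.21, 5.27 and 5.29, then 5.70, 5.87, 5.86 and 5.85. The time points did not overlap in either treatment, and both treatments fell to about the same level at 4 h and came most of the way back by 24 h. The fall at 4 h was -0.74 ± 0.05 (SE) in sham-exposed cells (adjusted p = 3.23e-11), which left 59.7% of the signal at 0 h, and the rise from 4 h to 24 h was 0.49 (adjusted p = 2.65e-08).

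Further subunits of the catalytic arm of complex I moved the same way to different extents. Ndufv2, a subunit of the NADH-oxidising module, fell by 0.52 in sham-exposed cells at 4 h. Ndufv1, which binds the flavin in that module, fell by 0.22 at 4 h and by 0.35 at 24 h, and Ndufs1, the large iron-sulfur subunit, by 0.27 and 0.17. Among the accessory subunits Ndufa6 fell by 0.51 at 4 h and Ndufa3 by 0.43 and 0.45 at the later times. At the other end, Ndufa1 and Ndufb6 differed by -0.08 each at 4 h (adjusted p = 0.219 and 0.257) and Ndufa10 by -0.10 (adjusted p = 0.055) and by -0.03 at 24 h (adjusted p = 0.602). Ndufa4, which is counted with complex I by its symbol and is known as a subunit of complex IV, fell by 0.21 at 4 h and stood at 0.02 above its starting level at 24 h (adjusted p = 0.894). Its relative Ndufa4l2 fell by 0.63 ± 0.23 at 24 h (adjusted p = 0.0408), but was not above background on every array and did not pass when any one of 6 arrays was left out, among them replicate 1 of sham at 0 h (-0.57, adjusted p = 0.0986). Ndufa4 did not pass at 4 h without replicate 2 of sham at 0 h (-0.16, adjusted p = 0.058).

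Complex II, succinate dehydrogenase, is also an enzyme of the citric acid cycle and has no subunit from mitochondrial DNA. All 4 of its genes were lower in sham-exposed cells at 4 h, with a median of -0.35, and 3 of the 4 at 24 h, with a median of -0.25 that turned to 0.45 under spike-in scaling. The iron-sulfur subunit Sdhb read 6.16, 6.26, 6.07 and 6.15 on the sham arrays at 0 h, 5.78, 5.82, 5.84 and 5.57 at 4 h, then 5.99, 6.03, 6.05 and 6.04 at 24 h. The nsPEF arrays read 6.15, 6.07, 6.06 and 6.06, then 5.82, 5.79, 5.74 and 5.67, then 6.01, 6.13, 5.97 and 6.07. Sdhb was thus low at 4 h on all 8 arrays, while the 24 h levels overlapped those of 0 h in nsPEF-exposed cells and lay just below them in sham-exposed cells. It fell by 0.41 ± 0.06 at 4 h in sham-exposed cells (adjusted p = 3.17e-06), rose by 0.28 from 4 h to 24 h (adjusted p = 0.000293), and differed from 0 h by -0.13 at 24 h (adjusted p = 0.0852). Sdha, the flavoprotein with the catalytic site, did not come back in this way, with differences from 0 h of -0.34 at 4 h and -0.29 at 24 h. The membrane anchors Sdhc and Sdhd fell by 0.27 and 0.36 at 4 h and by 0.40 and 0.20 at 24 h. The last of these, for Sdhd, did not pass when any one of 6 arrays was left out (adjusted p from 0.0622 to 0.102).

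Complex III, which hands electrons from ubiquinol to cytochrome c, had 9 tested genes. Of these 5 were lower in sham-exposed cells at 4 h and 5 at 24 h, with 0 higher and medians of -0.22 at both times, of which that at 24 h turned to 0.48 under spike-in scaling. Uqcrc2, a core protein of the complex, read 5.44, 5.42, 5.37 and 5.32 on the sham arrays at 0 h, 5.07, 5.09, 5.06 and 4.86 at 4 h, then 5.07, 5.08, 5.05 and 5.05 at 24 h. On the nsPEF arrays it read 5.33, 5.34, 5.29 and 5.28, then 4.97, 4.95, 4.94 and 4.97, then 4.95, 4.96, 4.95 and 4.99. The gene was lower on every array after 0 h and showed no return. Its difference at 4 h was -0.37 ± 0.04 in sham-exposed cells (adjusted p = 4.51e-07) and -0.31 without replicate 4. The other core protein, Uqcrc1, fell by 0.22 at both times, and the small subunit Uqcr11 by 0.31 and 0.37.

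The redox subunits of complex III did not share this fall in sham-exposed cells. Cyc1, the haem protein that passes electrons to cytochrome c, read 5.48, 5.42, 5.59 and 5.55 on the sham arrays at 0 h, 5.47, 5.38, 5.49 and 5.38 at 4 h, then 5.47, 5.49, 5.57 and 5.65 at 24 h. On the nsPEF arrays Cyc1 read 5.40, 5.67, 5.46 and 5.36, then 5.39, 5.31, 5.43 and 5.53, then 5.58, 5.83, 5.68 and 5.81. Only the last of these groups lay mostly above its 0 h arrays, and it still overlapped them. Cyc1 rose by 0.25 ± 0.07 from 0 h to 24 h in nsPEF-exposed cells (adjusted p = 0.0082) and differed by 0.03 in sham-exposed cells (adjusted p = 0.763). The Rieske iron-sulfur protein Uqcrfs1 differed by -0.07 and -0.03 in sham-exposed cells (adjusted p = 0.429 and 0.755), and fell by 0.19 at 4 h in nsPEF-exposed cells (adjusted p = 0.0302), a difference that did not pass when any one of 5 arrays was left out (adjusted p from 0.0541 to 0.122). Uqcrq read between 6.94 and 7.30 on the sham arrays at 4 h and between 7.09 and 7.22 at 0 h, so that the groups overlapped, and its difference was -0.00 (adjusted p = 0.979).

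Complex IV, cytochrome c oxidase, had 7 of 14 tested genes lower and 1 higher in sham-exposed cells at 4 h, and 10 lower and 0 higher at 24 h, with medians of -0.15 and -0.27, of which that at 24 h turned to 0.43 under spike-in scaling. Cox7a2l, known as a factor that joins complexes III and IV into supercomplexes, had the largest fall of the complex at 4 h. It read 7.09, 7.14, 7.03 and 6.96 on the sham arrays at 0 h, 6.44, 6.39, 6.53 and 6.22 at 4 h, then 6.59, 6.58, 6.59 and 6.58 at 24 h. The nsPEF arrays read 7.08, 7.04, 6.96 and 6.90, then 6.49, 6.47, 6.43 and 6.34, then 6.56, 6.60, 6.46 and 6.44. No later array reached the level of 0 h. The fall at 4 h was -0.66 ± 0.06 in sham-exposed cells (adjusted p = 7.53e-09), to 63.3% of the signal at 0 h, and -0.57 ± 0.06 in nsPEF-exposed cells (adjusted p = 7.23e-08).

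**Figure D3:**
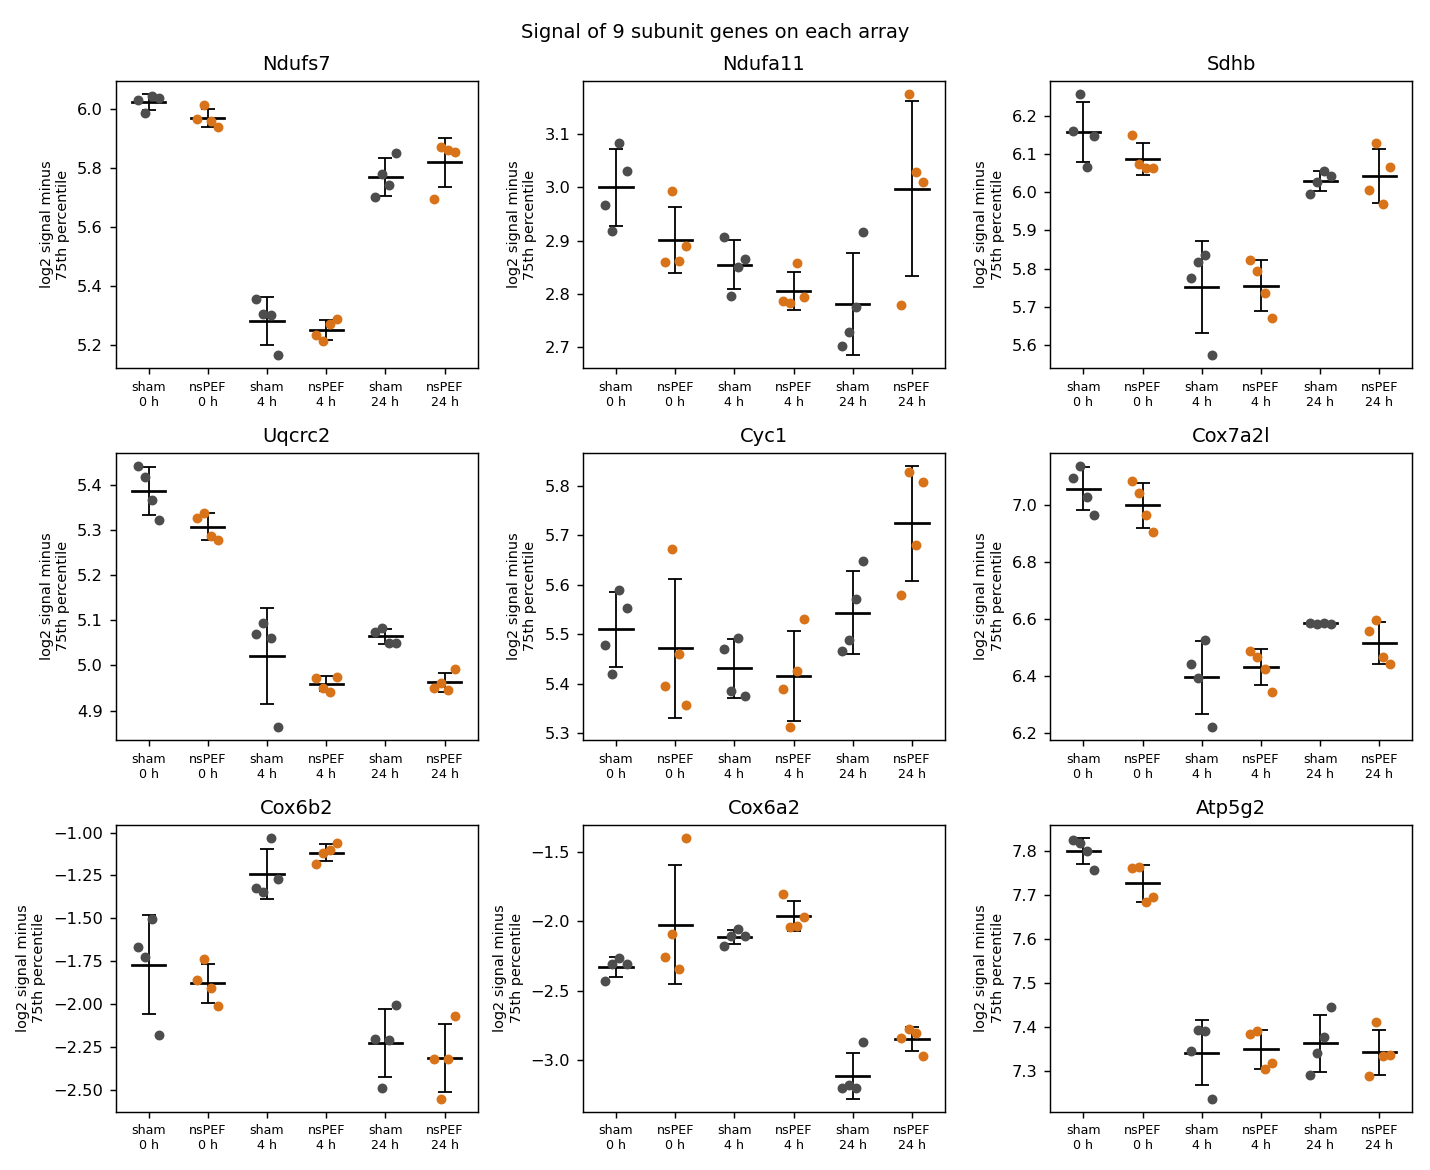
Level on every array (log2 less the array's 75th percentile, y axis) of 9 subunit genes by group (x axis), with sham in grey and nsPEF in orange. Points are arrays, bars are group means and error lines are SD (n = 4). Ndufs7 and Sdhb are lowest at 4 h, Uqcrc2, Cox7a2l and Atp5g2 stay low at 24 h, Cox6b2 is highest at 4 h and Cox6a2 is lowest at 24 h.

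Several subunits of complex IV come in a general and a tissue-bound form, and these forms did not move alike. Cox6b2, the form known from testis, read -1.67, -1.73, -1.50 and -2.18 on the sham arrays at 0 h, -1.32, -1.35, -1.03 and -1.27 at 4 h, then -2.20, -2.49, -2.21 and -2.01 at 24 h. On the nsPEF arrays it read -1.86, -1.74, -1.90 and -2.01, then -1.18, -1.12, -1.10 and -1.06, then -2.32, -2.55, -2.32 and -2.07. The arrays at 4 h stood above those at 0 h and at 24 h in both treatments. Cox6b2 rose by 0.53 ± 0.13 at 4 h in sham-exposed cells (adjusted p = 0.00126) and by 0.76 ± 0.13 in nsPEF-exposed cells (adjusted p = 2.81e-05), and was the only subunit gene higher at 4 h in both. It then dropped by 0.98 and 1.20 from 4 h to 24 h, to 50.6% and 43.6% of the signal at 4 h. Its general counterpart Cox6b1 fell by 0.19 and 0.22 in sham-exposed cells at 4 h and 24 h.

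Cox6a2, the form known from heart and skeletal muscle, read from -2.43 to -2.27 on the sham arrays at 0 h, from -2.18 to -2.05 at 4 h and from -3.21 to -2.87 at 24 h. The nsPEF arrays ranged from -2.34 to -1.40, from -2.04 to -1.81 and from -2.97 to -2.77 in the same order. The 24 h arrays lay below all others of the same treatment. The fall from 0 h to 24 h was -0.79 ± 0.14 in sham-exposed cells (adjusted p = 0.000163) and -0.83 ± 0.14 in nsPEF-exposed cells (adjusted p = 8.56e-05), and the general form Cox6a1 fell by 0.35 in sham-exposed cells at each time. Without replicate 4 of sham at 4 h the difference of Cox6a1 at that time was -0.18 (adjusted p = 0.101), and that at 24 h did not pass when any one of 5 arrays was left out (adjusted p from 0.0615 to 0.0992). Cox4i2, the form of the largest nuclear subunit known from lung and from low oxygen, rose by 0.32 ± 0.13 in nsPEF-exposed cells at 4 h (adjusted p = 0.042) and differed by -0.11 in sham-exposed cells (adjusted p = 0.504). The rise of Cox4i2 did not pass when any one of 5 arrays was left out (adjusted p from 0.0643 to 0.118). Cox4i1, the general form, differed by -0.09 in sham-exposed cells at 4 h (adjusted p = 0.33) and fell by 0.25 at 24 h, which became -0.21 (adjusted p = 0.0561) without replicate 2 of sham at 24 h and -0.22 (adjusted p = 0.0516) without replicate 3 of sham at 0 h. The general forms Cox7a2 and Cox7b fell by 0.17 and 0.28 at 4 h in sham-exposed cells, and Cox8a by 0.40. Without replicate 4 of sham at 4 h, Cox7a2 differed by -0.09 (adjusted p = 0.12) and Cox8a by -0.30. Cox7a1, the muscle form, was at or near background, ranged from -4.69 to -0.24 on the nsPEF arrays at 24 h, and passed no test. Cox5a, a core nuclear subunit, differed by -0.10 and -0.04 (adjusted p = 0.13 and 0.584).

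Complex V, the ATP synthase, had 14 of 17 genes lower in sham-exposed cells at 4 h and 15 at 24 h, with 0 higher and medians of -0.25 and -0.24, of which that at 4 h was -0.14 without replicate 4 and that at 24 h turned to 0.46 under spike-in scaling. The c-ring, the rotor in the membrane, is made from 3 genes for the same mature protein. Atp5g2, one of them, read 7.82, 7.82, 7.80 and 7.76 on the sham arrays at 0 h, 7.35, 7.39, 7.39 and 7.24 at 4 h, then 7.29, 7.34, 7.38 and 7.45 at 24 h. On the nsPEF arrays it read 7.76, 7.76, 7.68 and 7.70, then 7.39, 7.39, 7.31 and 7.32, then 7.29, 7.41, 7.34 and 7.34. Every array after 0 h was below every array at 0 h. The fall was -0.46 ± 0.04 at 4 h (adjusted p = 2.18e-08) and -0.44 ± 0.04 at 24 h (adjusted p = 2.51e-07) in sham-exposed cells. Atp5g1 fell by 0.29 and 0.24, while Atp5g3 fell by 0.25 at 4 h (adjusted p = 0.0352), which became -0.10 (adjusted p = 0.156) without replicate 4.

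The catalytic head of the synthase was less clear-cut. Atp5b, the catalytic subunit, read 8.26, 8.17, 8.08 and 7.97 on the sham arrays at 0 h, 8.02, 8.05, 7.97 and 7.43 at 4 h, then 7.90, 7.83, 7.89 and 7.87 at 24 h. The groups at 0 h and 4 h overlapped, and replicate 4 alone lay far below. The difference at 4 h was -0.25 ± 0.10 (adjusted p = 0.031), and without replicate 4 it was -0.11 (adjusted p = 0.124). Atp5a1, the partner of Atp5b in the head, differed by -0.09 at 4 h (adjusted p = 0.357) and fell by 0.31 at 24 h (adjusted p = 0.0051). Of the stalk and the membrane part, Atp5h fell by 0.34 and 0.38, and Atp5e, the small subunit of the central stalk, by 0.18 at 4 h and 0.42 at 24 h. Without replicate 4 of sham at 4 h, Atp5e differed by -0.14 at that time (adjusted p = 0.0847). Atp5md, a small membrane subunit, read 6.07 to 6.32 at 4 h and 6.15 to 6.29 at 0 h on the sham arrays, and its difference was 0.02 (adjusted p = 0.864). Atp5c1, of the central stalk, and Atp5j, of the peripheral stalk, differed least at 24 h and still fell by 0.19 and 0.18. Each of these 2 falls did not pass when any one of 4 arrays was left out (adjusted p from 0.055 to 0.0601 for Atp5c1 and from 0.0539 to 0.0838 for Atp5j).

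From 4 h to 24 h the sham-exposed cells had 9 subunit genes higher and 7 lower, against 31.7% and 33.8% of all genes, with a median of -0.00. The nsPEF-exposed cells had 19 higher and 6 lower, against 31.7% in each direction. Genes that came back in both treatments included Ndufb3, Ndufs7, Ndufs8, Ndufv2 and Sdhb, of which all but Ndufb3, an accessory subunit, are core parts of the 2 complexes that take up electrons. Each of these had fallen at 4 h in both treatments. The rise was 0.25 and 0.31 for Ndufb3 and 0.18 and 0.29 for Ndufs8 in sham-exposed and nsPEF-exposed cells. That of Ndufs8 in sham-exposed cells was 0.14 (adjusted p = 0.0578) without replicate 4 at 24 h. The counts for this interval depended on the scaling and on replicate 4 of the sham arrays at 4 h: without that array 7 genes were higher and 13 lower, and under quantile normalization 55 of the 81 differed in each treatment. The share of all genes under that normalization is not given here.

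Subunit genes also differed from 0 h in cells that had been exposed to nsPEF. At 4 h 37 subunit genes were lower and 2 higher (33% and 34.8% of all genes), with a median of -0.14 against 0.05 for all genes, which stayed below 0 under each scaling tried. The count itself depended on the scaling, with 17 lower and 3 higher on the spike-in RNA and 69 lower and 2 higher under quantile normalization. At 24 h 34 were lower and 1 higher (21.5% and 24.3% of all genes), with a median of -0.15 against 0.04, which turned to 0.33 under spike-in scaling, where the median of all genes was 0.51. The 24 h count rested on the replicates more than the others, with 22, 22 and 18 genes passing when replicate 1, 2 or 3 was left out of all groups. By complex, 22 genes of complex I, 4 of complex II, 5 of complex III, 1 of complex IV and 5 of complex V were lower at 4 h. Complex IV had a median of -0.05 there, which was 0.03 under spike-in scaling, and of its 14 genes Cox7a2l was the one that fell. At 24 h the lower genes numbered 16, 2, 2, 6 and 8 from complex I to V.

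Most genes that were lower after nsPEF were lower after sham exposure too. At 4 h 35 genes were lower in both treatments, which is 94.6% of the 37 in nsPEF-exposed and 58.3% of the 60 in sham-exposed cells, and at 24 h 34 were, which is 100% of the 34 and 56.7% of the 60. Of the 81 genes, 60 were already lower in sham-exposed cells at each time. The same overlap over all tested genes is not given here, so these shares cannot be read as particular to the subunit genes. Among the 79 genes measured on all arrays, the change from 0 h was less far down in nsPEF-exposed cells for 67 genes at 4 h (84.8%) and 71 at 24 h (89.9%), against 48.8% and 56% of all genes measured on all arrays. Both counts use the 0 h arrays, on which 76 of the 81 genes read lower after nsPEF, and they are no test. In the test of the interaction of treatment and time 0 of the 81 genes passed, while 0.428% of all genes did. The lowest adjusted p of a subunit gene was 0.136, for Uqcrc1. An unadjusted p under 0.05 was reached by 6 subunit genes and by 2997 of all 16842 genes. When replicate 1 of the nsPEF arrays at 24 h was left out, 4 genes passed, namely Atp5d, Atp5g1, Ndufa11 and Uqcrc1. The share of all genes that passed the interaction test without that array is not given here either.

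The direct comparison of nsPEF with sham asked whether the field itself moved the subunit genes. None of the 81 passed the limma test at any of the 3 time points. At 0 h 0 were higher and 0 lower (0.0356% and 0.0653% of all genes). At 4 h 0 were higher and 0 lower (1.69% and 2.35% of all genes). At 24 h 0 were higher and 0 lower (2.76% and 2.98% of all genes). Over the 3 time points together 0 were higher and 0 lower (4.01% and 6.04% of all genes). At an unadjusted p under 0.05, 1 subunit gene was higher and 3 lower at 0 h, against 440 and 987 of all 16842 genes. The unadjusted counts at 4 h were 5 and 4, against 1591 and 2281 of all genes. Those at 24 h were 10 and 1, against 2119 and 2070. Over the 3 time points together they were 5 and 7, against 1798 and 2944. With the replicate number as a block in the fit, Uqcrc2 passed over the 3 time points together (-0.08, adjusted p = 0.0485) and no other subunit gene did. Other tools and scalings called from 0 to 28 genes at single time points. The largest counts were 28 at 4 h under spike-in scaling and 14 at 24 h with array weights. The medians of all genes and of the subunit genes were 0.17 and 0.20 in the former and 0.03 and 0.07 in the latter. The share of all genes called under these settings is not given here. Other alternatives are given in the closing part.

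The size of the differences that could have been missed was limited. For the 79 genes measured on all arrays the median SE of a treatment difference was 0.06, and the 95% interval reached 0.13 to either side. The differences ran from -0.17 for Cox6b1 to 0.31 for Cox6a2 at 0 h, from -0.16 for Uqcrfs1 to 0.33 for Cox4i2 at 4 h and from -0.16 for Sdha to 0.28 for Cox4i2 at 24 h. Single arrays set 2 of these ends, since Cox6a2 at 0 h was 0.10 without replicate 4 of the nsPEF arrays and Cox4i2 at 4 h was 0.20 without replicate 4 of the sham arrays. The outermost bounds of their 95% intervals were -0.37 and 0.60, -0.31 and 0.61, and -0.35 and 0.56 at the 3 time points. The intervals do not cover the choice of scaling. Spike-in scaling moved the median of the 81 genes from -0.07 to 0.08 at 0 h and from 0.01 to 0.20 at 4 h. Signal over background was lower on the nsPEF arrays at 4 h (606.3 to 776.1) than on the sham arrays (840.1 to 1292.4), and its part in these comparisons was not tested.

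The signs of the small differences were unequal in number. At 0 h 76 of 81 genes were lower in nsPEF-exposed cells, with a median of -0.07 against -0.04 for all genes, of which 10979 of 16842 were lower. This median turned to 0.08 under spike-in scaling. At 24 h 58 were higher, as were 8857 of all genes, with a median of 0.05 against 0.01, which turned to -0.00 under quantile normalization and to -0.01 under spike-in scaling. Under the 75th percentile scaling the medians at 24 h by complex were 0.04 for I, -0.01 for II, 0.11 for III, 0.06 for IV and 0.08 for V. The array medians overlapped between the treatments at 4 h and 24 h, with means of -0.23 and -0.21 at 4 h and -0.26 and -0.20 at 24 h.

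**Figure D4:**
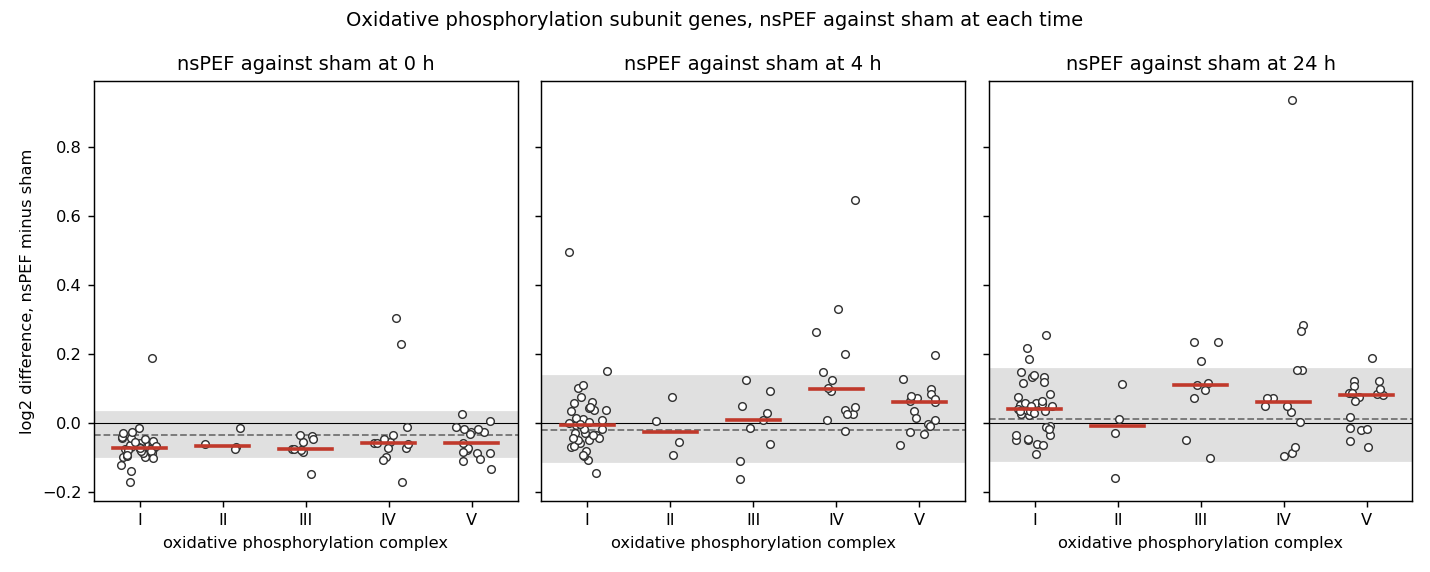
Difference between nsPEF and sham (log2, y axis) of each tested subunit gene by complex (x axis) at 0, 4 and 24 h. Points are genes, all open since none had an adjusted p under 0.05, the red bar is the median of the complex and the grey band and dashed line are the quartiles and the median of all tested genes. Under the 75th percentile scaling the complex medians lie between -0.08 and 0.11 at the 3 time points, and the median of all 81 genes turned under spike-in scaling at 0 h and 24 h.

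A few genes came near the threshold at 24 h. Ndufa11, an accessory subunit of the membrane arm of complex I, read 2.70, 2.73, 2.78 and 2.92 on the sham arrays and 2.78, 3.17, 3.03 and 3.01 on the nsPEF arrays. One nsPEF array lay among the sham arrays and the others above them. The difference was 0.22 ± 0.07 (adjusted p = 0.0647), and without that nsPEF array, replicate 1, it was 0.29 (adjusted p = 0.00601). Atp5g1 read 6.53, 6.54, 6.57 and 6.64 on the sham and 6.60, 6.85, 6.69 and 6.89 on the nsPEF arrays at 24 h. Its groups overlapped through the same array, and the difference was 0.19 ± 0.06 (adjusted p = 0.0937). Uqcrq and Uqcrb differed by 0.23 each (adjusted p = 0.094 and 0.184). Leaving out replicate 1 of the nsPEF arrays at 24 h brought 8 genes past the threshold, all higher, namely Atp5d, Atp5g1, Ndufa11, Ndufb2, Ndufb8, Ndufs8, Uqcrb and Uqcrq. The share of all genes that passed without that array is not given here, so this count cannot be read as particular to the subunit genes.

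In the opposite direction Uqcrc2 was the nearest. As the levels above show, its nsPEF arrays at 24 h (4.95 to 4.99) all lay below its sham arrays (5.05 to 5.08). Over the 3 time points it was lower by -0.08 ± 0.03 (adjusted p = 0.0534), and by -0.10 (adjusted p = 0.00774) without replicate 4 of the sham arrays at 4 h. Sdha was lower by -0.16 at 24 h (adjusted p = 0.262). The isoform genes Cox4i2 and Cox6a2 had differences of 0.28 and 0.27 at 24 h (adjusted p = 0.213 and 0.267), and Ndufa4l2 of 0.49 at 4 h (adjusted p = 0.232), with wide errors.

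**Figure D5:**
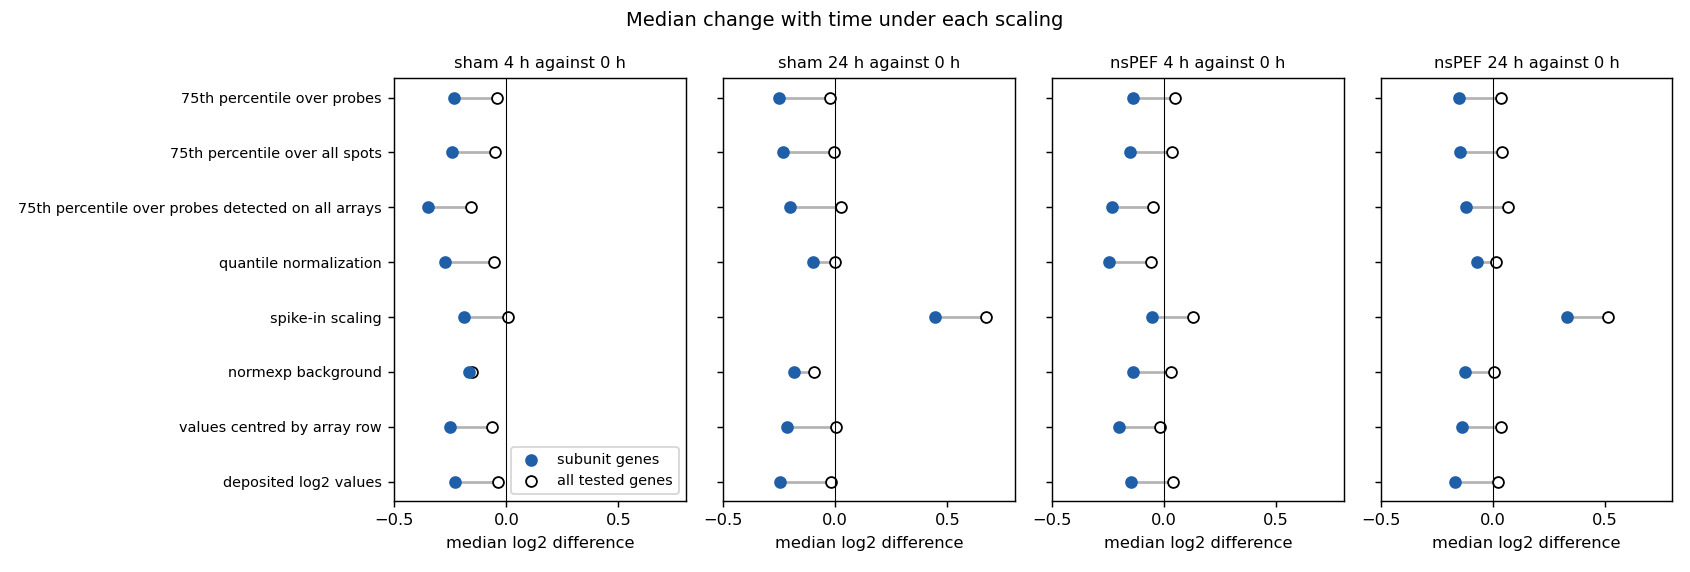
Median difference from 0 h (log2, x axis) of the 81 subunit genes and of all tested genes under 8 ways of processing the arrays (y axis), for sham-exposed and nsPEF-exposed cells at 4 h and 24 h. The subunit genes lie below all genes in every case, and spike-in scaling moves both above 0 at 24 h.

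Where a gene had several probes, they did not always move together. Of the 84 genes 62 had 1 probe, 20 had 2 and 2 had 3, and the text uses the probe with the highest mean signal. The second probe of Ndufb8, a membrane-arm subunit, rose by 1.01 at 4 h in sham-exposed cells (adjusted p = 9.64e-11) and by 0.88 in nsPEF-exposed cells, whereas the brighter probe differed by -0.15 (adjusted p = 0.0811) and -0.02. Probes of Atp5b ranged from -0.25 to 0.04 in sham-exposed cells at 4 h and those of Ndufa10 from -0.10 to 0.07. The probes of Sdhb differed by -0.13 and 0.05 at 24 h in sham-exposed cells. Those of Atp5g1, Atp5md, Cox7c, Ndufb2 and Uqcrb disagreed in direction at 4 h or 24 h in nsPEF-exposed cells. For Atp5g1 the brighter probe differed by -0.09 and the second by 0.08 at 4 h there. In sham-exposed cells at 4 h they differed by -0.29 and -0.04. In no gene did 1 probe pass upward and another downward.

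Genes that serve the complexes without being part of them were read from lists. Assembly factors insert cofactors and join the subunits. Of 60 listed, 56 were tested, and in sham-exposed cells at 4 h 16 were higher (28.6%, against 30.8% of all genes) and 30 lower (53.6%, against 34.6%), with a median of -0.23 and quartiles of -0.55 and 0.40, near those of all genes. Ndufaf4, an assembly factor of complex I, rose by 1.95 and Sco2, a copper chaperone of complex IV, by 1.91. Sdhaf4, which helps to mature Sdha, fell by 1.51, Coa3, which acts early in the making of complex IV, by 1.03 and Ndufaf3 by 0.93. At 24 h 4 were higher (7.14%, against 15.7% of all genes) and 14 lower (25%, against 22.8%) in sham-exposed cells, where the median of -0.07 turned to 0.62 under spike-in scaling. Between treatments Ndufaf7, Uqcc1, Coa4 and Coa6 were lower after nsPEF at 4 h, by -0.20, -0.19, -0.20 and -0.22 (7.14% of the list, against 2.35% of all genes). At 24 h Ndufaf4, Ecsit and Sco2 were higher, by 0.28, 0.25 and 0.21 (5.36%, against 2.76%). Over the 3 time points 4 were lower (7.14%, against 6.04%), with the lowest adjusted p of 0.0037 for Uqcc1.

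Regulators of respiratory genes and of mitochondrial DNA went the other way. Of 17 genes 13 were higher (76.5%) and 1 lower (5.88%) in sham-exposed cells at 4 h, against 30.8% and 34.6% of all genes, with a median of 0.48 that stayed above 0 under each scaling tried, and in nsPEF-exposed cells 12 were higher and 2 lower (70.6% and 11.8%, against 34.8% and 33% of all genes). Pprc1, a coactivator of the PGC-1 family, rose by 1.49, Nrf1, the factor whose sequence is marked above, by 0.62, Yy1 by 0.48 and Gabpb2, a partner of GABPA, by 1.07 in sham-exposed cells. Gabpa itself rose by 0.17 (adjusted p = 0.0451). Tfb1m, which methylates mitochondrial ribosomal RNA, fell by 1.85, and Tfam, which packages mitochondrial DNA, differed by 0.01 (adjusted p = 0.887). Between treatments Esrra and Tfb1m were lower after nsPEF at 4 h, by -0.19 (adjusted p = 0.0352) and -0.31 (adjusted p = 0.0411), which is 11.8% of the list against 2.35% of all genes, and the other 15 regulators did not pass.

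Of 18 carriers and partners of the chain 4 were higher (22.2%, against 30.8% of all genes) and 9 lower (50%, against 34.6%) in sham-exposed cells at 4 h. Chchd4, of the import path into the intermembrane space, rose by 1.49, Slc25a5, an ATP and ADP exchanger, by 0.54, and Cycs, cytochrome c, by 0.35. Etfdh, which feeds electrons from fatty acid oxidation into ubiquinone, fell by 0.63 and the uncoupling protein Ucp2 by 0.48. Dhodh, an enzyme of pyrimidine synthesis that also reduces ubiquinone, was the one gene of this list that differed between treatments at 24 h, higher after nsPEF by 0.29 (adjusted p = 0.0394), which is 5.56% of the list against 2.76% of all genes.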

How the data were processed

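Gene expression was measured on 1-colour Agilent mouse arrays. The deposited intensity values were written by Agilent Feature Extraction 12.0, and the log2 values of the deposited series table were made by the authors with a 75th percentile shift and a median baseline. Here log2 of the processed intensity less the 75th percentile of each array was averaged over spots of a probe. Probes well above background on at least 2 of 4 arrays of a group were kept (37684 of 56605), and the brightest probe stood for a gene. limma 3.58.1 (R 4.3.3) fitted the 6 groups, with Benjamini-Hochberg adjustment over all tested probes and a threshold of 0.05. Every ± after a difference is its SE, and every p in the text is from this fit or from the same fit with the change named beside it. Genes were named as the strongest rises and falls of each complex, the isoform genes, the core catalytic subunits and those with discordant probes. One gene that this rule takes is not reported here. The genes shown array by array and in the promoter display, and those named from the lists, were chosen after their values were seen, and the subunit genes and the lists were chosen with earlier results of these data known. The number of arrays limits the precision. The scripts were tested on simulated data. The closing part gives the effect of other scalings, filters, probe rules, weights and left-out arrays.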

Additional observations from a re-analysis of the deposited data

Results flagged for a closer look

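Single arrays that stood far from the other 3 of their group, by more than the 95% critical value of Dixon's test, were found in 13 of 126 groups of 4 arrays. Chance gives about 1 in 20 only for independent groups that were not chosen. These were 15 genes chosen after their values were seen and medians over overlapping sets of genes, all read on the same arrays. Replicate 4 of the sham arrays at 4 h accounted for 6 of the 13. On that array the median over all subunit genes was -0.354 relative to sham at 0 h, that of complex I -0.323, that of complex IV -0.371 and that of complex V -0.444. Uqcrc2 read 4.86 there and Atp5b 7.43, against 5.06 to 5.09 and 7.97 to 8.05 on the other arrays. The remaining cases were spread over other arrays. Replicate 4 of the sham arrays at 0 h had a complex IV median of -0.0899. Ndufs7 read 5.70 on replicate 1 of the nsPEF arrays at 24 h, Ndufa11 2.86 on replicate 3 at 4 h and Sdhb 6.15 on replicate 1 at 0 h. Cox6a2 read -2.87 on replicate 4 of the sham arrays at 24 h. Cox7a1, near background, read -2.90 on replicate 2 of the nsPEF arrays at 0 h and -0.24 on replicate 2 at 24 h, where the others lay between -4.69 and -4.30.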

How the results depend on the processing

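Each count is the number of the 81 subunit genes that passed, or of all 84 where no filter was used. The share of all genes that passed under each alternative is not given here, so the counts cannot be set against it. Quantile normalization gave 33 (sham 24 h against 0 h), 55 (sham 24 h against 4 h), 71 (nsPEF 4 h against 0 h), 55 (nsPEF 24 h against 4 h), 1 at 4 h and 2 at 24 h between treatments, and 1 over the 3 times. Its medians were -0.10, 0.17, -0.24 and 0.21 for the same 4 time comparisons, -0.0733 for nsPEF 24 h against 0 h and -0.003 between treatments at 24 h. Uqcrq (0.11, sham at 4 h) and Cox5a (0.14, sham at 24 h) turned. Spike-in scaling, which rested on 6 probes, gave 38 (sham 4 h against 0 h), 78 (sham 24 h against 4 h), 20, 63 and 74 (nsPEF 4 h and 24 h against 0 h and 24 h against 4 h), 28 between treatments at 4 h and 14 over the 3 times. Its medians were 0.45 and 0.65 (sham 24 h against 0 h and 4 h), -0.0557, 0.33 and 0.44 (nsPEF), and 0.084, 0.20, -0.0121 and 0.0934 between treatments at 0, 4 and 24 h and over all. At 24 h in sham-exposed cells it turned Ndufa4l2 (0.0671), Ndufa3 (0.25), Ndufa10 (0.66), Sdhc (0.30), Sdhb (0.57), Uqcr11 (0.32), Cox7a2l (0.23), Cox7c (0.61), Cox5a (0.65), Atp5g2 (0.26), Atp5e (0.28), Atp5c1 (0.51) and Atp5j (0.51). The cause was not tested.

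The 75th percentile over probes detected on all arrays gave 45 (sham 24 h against 4 h), 67 (nsPEF 4 h against 0 h), 48 (nsPEF 24 h against 4 h) and 1 between treatments over all, with medians of -0.35 (sham 4 h against 0 h), 0.16, -0.23 and 0.17. Over the 3 times, normexp gave 4 genes, marked spots kept 4, deposited log2 values 4, no filter 5, array row centring 5, mean of probes 2, and 1 each came from the strict filter, plain analysis of variance and the percentile over all spots, the last chosen after seeing the data. Uqcrc2 was among the genes in each of these settings. The normexp medians were -0.17 (sham 4 h) and -0.18 (sham 24 h), and row centring gave -0.20 (nsPEF 4 h). Between treatments, row centring gave 2 genes at 4 h and 2 at 24 h, no filter 2 and 3 (0 and 1 of them among the 81, and 2 of its 5 over the 3 times, the rest being Cox7b2, Cox8b or Cox8c near background), plain analysis of variance 1 at 4 h, the strict filter 1 at 24 h and mean of probes 2 at 24 h. Array weights gave 30 (sham 24 h against 4 h), 14 at 24 h, 4 over all and 5 in the interaction.

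Leaving out arrays gave 49 to 63 and 40 to 66 genes (sham 4 h and 24 h against 0 h), 10 to 24 (24 h against 4 h), 30 to 45, 18 to 41 and 15 to 28 (the same for nsPEF), 0 at 0 h and 4 h, 0 to 8 at 24 h and 0 to 2 over all between treatments, and 0 to 4 in the interaction. The count for sham 24 h against 4 h was 10 without replicate 3 of all groups, and that for nsPEF 24 h against 4 h was 15 without replicate 2 and 16 without replicate 3. Between treatments over all, leaving out replicate 4 gave 2 genes, replicate 4 of sham at 4 h 2, and replicate 3 or 4 of nsPEF at 0 h or replicate 4 of sham at 24 h 1 each. At 24 h, leaving out replicate 4 of all groups or of sham at 24 h gave 1. The medians ran from -0.26 to -0.19, -0.29 to -0.22, -0.0727 to 0.0296, -0.16 to -0.11, -0.17 to -0.11 and 0.00 to 0.07 over time, and from -0.08 to -0.05, -0.03 to 0.04, 0.02 to 0.08 and -0.02 to 0.02 between treatments. With the replicate block 1 gene (Uqcrc2) passed over the 3 times. Arrays with the same number on a slide correlated from -0.159 to 0.289 (12 pairs, median 0.105, 7 over 0.1). Those with different numbers on a slide correlated from -0.485 to 0.29 (36 pairs, median -0.075, 9 over 0.1). The main fit did not take the numbers as pairs, and the replicate block is the alternative that does. The slide could not be fitted as a block for time, since each time was 1 slide. Differences under about 0.13 were within the 95% interval of a typical gene in the main fit, which does not cover the choice of scaling.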
